A study of Mus musculus with 6 samples.

Results

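Oxidative phosphorylation is run by protein complexes whose subunits are coded partly in the mitochondrial and partly in the nuclear genome, and 98 of its genes were followed here in CD11b+ marrow cells of the femur and mandible. Members were chosen by symbol alone (mt-Nd, mt-Co, mt-Cytb and mt-Atp genes, and the Nduf, Sdh, Uqcr, Cox, Atp5 and Cycs subunit symbols), with no measured value in the choice. Of 32285 genes measured, 13 were the protein-coding genes of the mitochondrial genome and 85 were nuclear genes for subunits of complexes I to V and for cytochrome c. The mitochondrially encoded genes belonged to complex I (7 genes), complex III (1), complex IV (3) and complex V (2). The nuclear genes belonged to complex I (36), complex II (4), complex III (8), complex IV (19) and complex V (17), with Cycs for cytochrome c. Ndufa4 and Ndufa4l2 carry a complex I name but were placed with complex IV, of which Ndufa4 is a subunit.

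Complexes I to IV pass electrons to oxygen and, except for complex II, pump protons across the inner mitochondrial membrane, and complex V uses the gradient to make ATP. Complex II is coded by the nucleus alone. The mitochondrial genome is transcribed in the organelle as long precursors that are cut into single RNAs, while each nuclear subunit has a promoter of its own. Neutrophils are known for a sparse mitochondrial network and a metabolism that relies on glycolysis, and their precursors for a richer one.

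Cells came from 2-month-old C57Bl/6 mice, with 3 femur samples (replicate 1 female, replicates 2 and 3 male) and 3 mandible samples (all male). All were selected on magnetic beads for CD11b, the integrin coded by Itgam, and carried no other treatment or engineered allele in the labels. The labels describe marrow of femurs and tibiae for the femur group, the study's methods name femurs alone, and molars were extracted before the mandibles were flushed. How many mice went into a sample is not stated, so the p-values below measure only the spread between these samples.

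The 6 libraries held 69776 kept cells and 82962160 to 244946998 UMIs (unique molecular identifiers, each counting 1 captured RNA), and Itgam measured 682 to 974 CPM (UMIs per 1000000 UMIs of the sum) in every sample. The authors' kept cells left out 18.5% of the barcodes of femur replicate 1 and 1.88% to 5.14% in the other 5 samples. Mitochondrial content was among their limits. UMIs were summed per sample and per cluster of the deposited annotation, which has 9 clusters. Between 15 and 70 barcodes were shared by any pair of libraries, at most 0.651% of a library. Femur replicate 3 had the most cells and stood apart in these genes, with the lowest mitochondrially encoded share of UMIs over all kept cells (0.637%, against 0.953% to 1.12% in the other 5 samples). In mandibular-derived cells of cluster 2 the summed ameloblast markers measured 15.3 to 70.4 CPM, against at most 0.0739 CPM in femur-derived cells, and the level differed widely between clusters. It was 7.0 to 10.1 CPM in mandible cells of cluster 4, 16 to 1317 CPM in cluster 5 and 195 to 549 CPM in cluster 7, against at most 0.550 CPM in femur cells of these clusters.

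Hand-written marker lists placed the clusters. Summed markers of neutrophil precursors (Mpo, Elane, Prtn3, Ctsg and Fcnb) had a median over samples of 3469 CPM in cluster 4 and 255 CPM or less in clusters 0 to 3. Those of immature neutrophils (Ltf, Camp, Ngp, Lcn2 and Chil3) fell from 102218 CPM in cluster 4 and 96965 in cluster 0 to 28008 in cluster 3, 13345 in cluster 2 and 6861 in cluster 1. Mature neutrophil markers (Il1b, Csf3r, Cxcr2, Il1r2, Stfa2l1 and Ccl6) rose in the same order, from 586 CPM in cluster 4 to 10633 CPM in cluster 1. Clusters are therefore given below in the order 4, 0, 3, 2, 1, from precursor-like to mature neutrophil-like cells. Monocyte markers were highest in cluster 5 (3865 CPM) and B lineage markers in cluster 6 (8602 CPM).

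Stretches of the mitochondrial chromosome are shown first because they set which values can be told apart. The genes lie close together on the circle. mt-Atp6 and mt-Co3 share only base 8607, and the 3 other pairs that share bases are shown (mm10, plus strand, shared bases in capitals with 30 bases on each side):
mt-Atp8 and mt-Atp6, chrM:7897-7999: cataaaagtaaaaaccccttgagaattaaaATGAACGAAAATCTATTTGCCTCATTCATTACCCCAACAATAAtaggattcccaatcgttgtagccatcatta
mt-Nd4l and mt-Nd4, chrM:10137-10203: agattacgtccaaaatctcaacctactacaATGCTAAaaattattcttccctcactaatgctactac
mt-Nd5 and mt-Nd6, chrM:13522-13595: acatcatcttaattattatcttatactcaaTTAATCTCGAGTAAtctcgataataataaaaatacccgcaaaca
The shared stretch was 43 bases for mt-Atp8 and mt-Atp6, subunits of complex V, and 7 bases for mt-Nd4l and mt-Nd4 of complex I. The 14 bases shared by mt-Nd5 and mt-Nd6 are read in opposite directions, since mt-Nd6 (13552 to 14070) is the only member on the minus strand. mt-Atp8 with mt-Atp6, and mt-Nd4l with mt-Nd4, are known to be kept on shared messenger RNAs, so the split of UMIs within these pairs is uncertain. Whether the counting used strand is not given in the sources used here, so UMIs of mt-Nd6 cannot be told apart from RNA antisense to other genes at its place. Over the nuclear members the same limit applies in part: 39 of the 85 overlapped another annotated gene, 12 of them on the same strand. One of these, Ndufb1-ps, is annotated as a long non-coding RNA at 12:101968090-101977068, although its symbol is that of a complex I subunit.

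Promoters of the nuclear members were searched for 4 short motifs whose factors are known for this pathway, on both strands of the 300 bases around the start (250 before, 50 after, RefSeq, GRCm38.p6). Promoters were matched for 68 of the 85 members, 73 promoters in all. The NRF1 core CGCATGC was in 12 of the 73 (16.4%) and in 3.58% of all 32851 promoters. The ETS core CCGGAAG was in 17 (23.3%) against 8.86%, the YY1 core AGATGGC in 11 (15.1%) against 6.40%, and the ERR core AAGGTCA in 8 (11%) against 4.72%. At least 1 of the 4 was in 36 of the 73 (49.3%) and in 21.4% of all. Promoters of 3 members are shown that held the NRF1 core yet followed different courses between clusters (below), read along the gene with motif letters in capitals:
Cycs, chr6:50566520-50566819, minus strand: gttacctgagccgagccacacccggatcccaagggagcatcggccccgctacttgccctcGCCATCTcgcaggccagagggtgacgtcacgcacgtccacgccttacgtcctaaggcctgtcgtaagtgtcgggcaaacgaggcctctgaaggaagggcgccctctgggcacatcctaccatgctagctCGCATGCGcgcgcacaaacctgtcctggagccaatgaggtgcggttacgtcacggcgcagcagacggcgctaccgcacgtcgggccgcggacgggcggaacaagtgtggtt
Atp5g2, chr15:102670998-102671297, minus strand: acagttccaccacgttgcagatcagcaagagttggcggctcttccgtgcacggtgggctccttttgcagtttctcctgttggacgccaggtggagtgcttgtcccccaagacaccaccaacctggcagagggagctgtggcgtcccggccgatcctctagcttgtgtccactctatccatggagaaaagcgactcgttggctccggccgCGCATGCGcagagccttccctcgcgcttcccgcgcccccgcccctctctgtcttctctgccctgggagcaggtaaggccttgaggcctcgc
Atp5l, chr9:44920693-44920992, minus strand: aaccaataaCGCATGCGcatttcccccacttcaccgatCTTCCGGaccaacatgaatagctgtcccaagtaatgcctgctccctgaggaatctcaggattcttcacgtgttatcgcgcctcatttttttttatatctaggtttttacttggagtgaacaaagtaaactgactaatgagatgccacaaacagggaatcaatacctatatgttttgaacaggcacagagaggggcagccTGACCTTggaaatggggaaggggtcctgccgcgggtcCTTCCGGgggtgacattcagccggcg
In each, the NRF1 core was found on both strands at overlapping letters. Cycs also held the YY1 core, and Atp5l held the ETS core at 2 places and the ERR core. None of the 4 motifs was in the matched promoters of Ndufa5 and Ndufa7, the ends of the range in complex I, or of Cox7a2l, the highest in complex IV. A match or its absence describes letters, not binding.

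Along the neutrophil order both groups of genes lost share of the cell's RNA, by different courses. The nuclear members fell at each step from cluster 4 to cluster 2 and then stayed level, while the mitochondrially encoded genes fell to cluster 3. In summed UMIs, but not in the median cell, the mitochondrially encoded genes were then higher in cluster 1 than in cluster 3. These comparisons are descriptions with no test, because the clusters were made from the same cells and the authors regressed the mitochondrial content out before clustering. In cluster 4 the mitochondrially encoded share of UMIs was 1.57%, 1.41% and 0.724% in femur replicates 1 to 3 and 1.27%, 0.958% and 1.11% in mandible replicates 1 to 3. In cluster 3 it was 0.362%, 0.333% and 0.292% in the femur and 0.471%, 0.395% and 0.378% in the mandible. In cluster 1 it was 0.565%, 0.426% and 0.380% in the femur and 0.638%, 0.584% and 0.557% in the mandible. Cluster 3 was thus the low point of these 3 clusters in every sample, with a median fold of 0.635 from cluster 4 to 0, 0.555 from 0 to 3 and 1.41 from 3 to 1, the last higher in 6 of 6 samples. The step from 3 to 2 had a median fold of 1.13 and was lower in 2 of 6 samples. The direction from cluster 3 turned with the summary used: in the median cell the share was 0.246% to 0.376% in cluster 3, 0.193% to 0.359% in cluster 2 (lower in 5 of 6 samples) and 0.196% to 0.365% in cluster 1 (lower than in cluster 3 in 4 of 6 samples). From cluster 2 to 1 the share in the median cell was higher in 6 of 6 samples, as in summed UMIs. The nuclear share was 1.28% to 1.49% in cluster 4, 0.796% to 0.981% in cluster 0, 0.524% to 0.708% in cluster 3, 0.476% to 0.668% in cluster 2 and 0.472% to 0.738% in cluster 1. Its median fold was 0.628 from cluster 4 to 0, 0.724 from 0 to 3, 0.939 from 3 to 2 and 0.994 from 2 to 1.

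**Figure D1:**
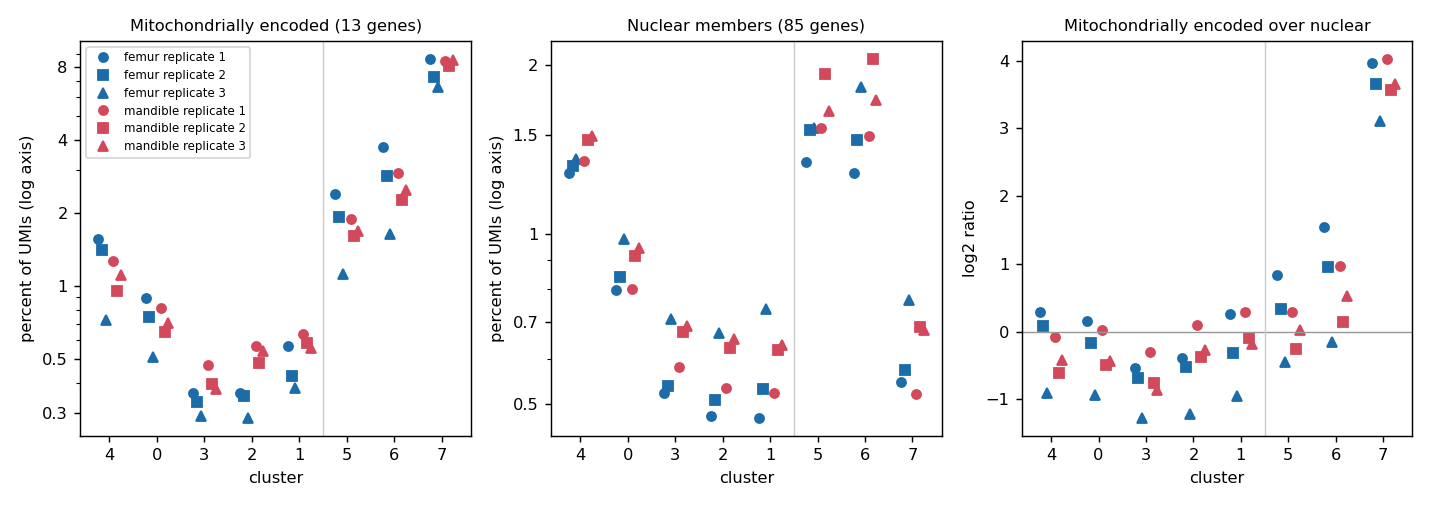
Share of UMIs of the 13 mitochondrially encoded genes (left, percent, log axis), of the 85 nuclear members (middle, percent, log axis) and the log2 ratio of the first to the second (right), by cluster, with 1 point per sample. Clusters 4 to 1 follow the neutrophil order left of the grey line, with a low point of the mitochondrially encoded share at clusters 3 and 2, and cluster 7 stands between 6.61% and 8.60%.

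Per cell the drop was steeper, since mature cells also held less RNA. The mean number of mitochondrially encoded UMIs per cell had a median over samples of 283 in cluster 4, 87.2 in cluster 0, 25.7 in cluster 3, 29.6 in cluster 2 and 29.2 in cluster 1. Nuclear member UMIs per cell had medians of 305, 103, 46.2, 39.7 and 31.6 in the same order. Total UMIs per cell fell from a median of 22764 in cluster 4 to 5246 in cluster 1.

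Among single genes, 13 of 13 mitochondrially encoded genes and 72 of 79 nuclear members with at least 10 CPM in either cluster were lower in cluster 1 than in cluster 4 in 6 of 6 samples. Of all 7396 genes compared in this way, 45.9% were. The median log2 ratio was -1.12 for the mitochondrially encoded genes and -1.45 for the nuclear ones, against -0.09 over all genes compared. Log2 ratios of single genes between clusters are means over samples of ratios of CPM + 1, which understates the change of members near 1 CPM such as Cox6b2. Courses of the mitochondrially encoded genes lay close together, from -1.37 to -0.59, while those of the nuclear members ran from -4.39 to 0.34.

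Step by step in summed UMIs, 13 of 13 mitochondrially encoded genes and 72 of 79 nuclear members were lower in cluster 0 than in cluster 4 in 6 of 6 samples, as were 46.5% of all genes compared. From cluster 0 to 3 these counts were 12 of 12 and 70 of 78, against 43.3% of genes. From cluster 3 to 2 the groups parted, with 8 of 12 mitochondrially encoded genes higher in 6 of 6 samples (36.8% of genes) and 29 of 71 nuclear members lower (18.7% of genes). From cluster 2 to 1, 9 of 12 mitochondrially encoded genes were higher, against 48.4% of genes. By complex, the median fold between clusters 3 and 1 in summed UMIs was 1.99 for the mitochondrially encoded genes of complex I, 1.71 for complex III, 1.52 for complex V and 1.25 for complex IV, each above 1 in 6 of 6 samples.

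**Figure D2:**
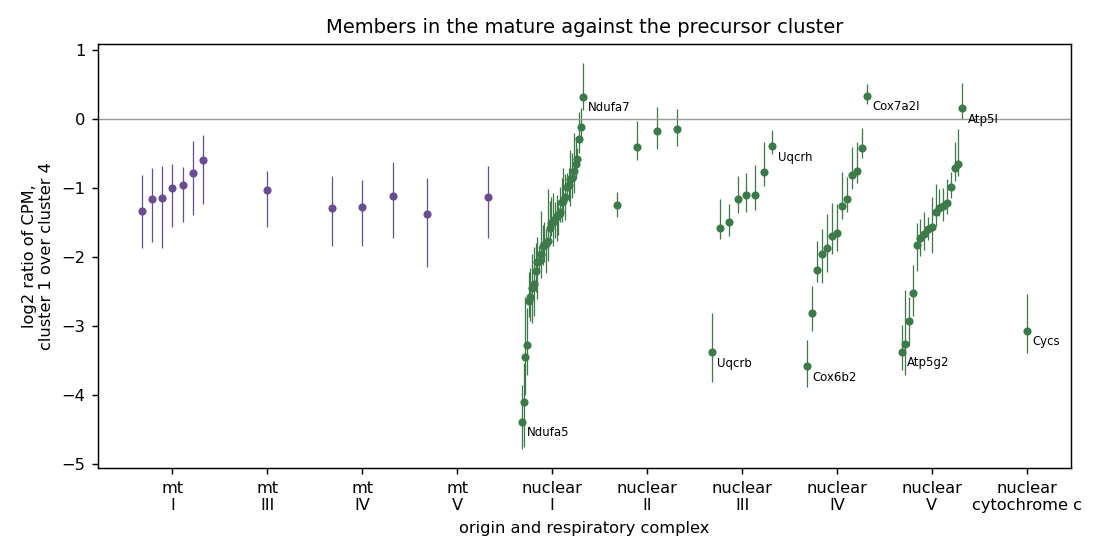
Log2 ratio of CPM + 1 in cluster 1 over cluster 4 for each member with at least 10 CPM in either cluster, by origin and complex. Points are means over 6 samples and lines run from the lowest to the highest sample, and the mitochondrially encoded genes (mt) lie between -1.37 and -0.59 while nuclear members run from Ndufa5 at -4.39 to Cox7a2l at 0.34.

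In complex I, which takes electrons from NADH, 33 of 36 nuclear members were lower in cluster 1 in 6 of 6 samples. Ndufa5, an accessory subunit of the peripheral arm, measured 72.0 ± 6.79 CPM in cluster 4 and 2.62 ± 1.19 CPM in cluster 1 (mean ± SD, n = 6 samples), a log2 ratio of -4.39. Ndufa7 went the other way, from 111 ± 14.4 to 140 ± 26.2 CPM (0.33), and was higher in 6 of 6 samples, as were 42% of all genes compared. Ndufb1-ps fell from 652 ± 28.8 to 285 ± 47.4 CPM. The mitochondrially encoded core subunits of the same complex had a median log2 ratio of -1.0, against -1.50 for the nuclear ones.

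Complex II, succinate dehydrogenase, changed least. Its summed share had a median log2 ratio of -0.45 from cluster 4 to 1, against -1.19 to -1.33 for the nuclear parts of complexes I, III, IV and V. Sdhc, a membrane anchor, went from 22.9 ± 1.52 to 9.11 ± 0.890 CPM. Sdhd, the other anchor, measured 34.3 ± 2.87 and 31.1 ± 2.75 CPM, and Sdha, the catalytic flavoprotein, 46.6 ± 5.22 and 41.6 ± 6.66 CPM. Sdhd and Sdha were lower in 4 of 6 samples. Sdhb, the iron-sulfur subunit, had a log2 ratio of -0.40.

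In complex III, which passes electrons from ubiquinol to cytochrome c, 8 of 8 nuclear members were lower in cluster 1 in 6 of 6 samples. Uqcrb fell from 224 ± 15.1 to 21.7 ± 7.69 CPM (-3.37), and Uqcrh, the hinge protein, from 214 ± 18.4 to 164 ± 24 CPM (-0.39). The single mitochondrially encoded subunit, mt-Cytb, had a log2 ratio of -1.03. Cycs, which carries the electrons onward and is also known as a trigger of apoptosis when released, fell from 85.5 ± 11.6 to 9.47 ± 2.40 CPM (-3.07).

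In complex IV, cytochrome c oxidase, Cox8a measured 506 ± 39.4 CPM in cluster 4 and 380 ± 55.2 CPM in cluster 1 (-0.42). Cox6b2, a paralog of Cox6b1 known from testis, had 17.9 ± 0.746 and 0.595 ± 0.246 CPM (-3.58). Cox7a2l, known for joining complexes III and IV in supercomplexes, rose from 67.2 ± 6.02 to 85.8 ± 12.8 CPM (0.34) and was higher in 6 of 6 samples. In complex V, ATP synthase, Atp5e fell from 463 ± 42.0 to 287 ± 54.0 CPM (-0.70). Atp5l, a membrane subunit, measured 328 ± 21.8 and 368 ± 54.1 CPM (0.16) and was higher in 5 of 6 samples. Atp5g1, Atp5g2 and Atp5g3 code the same mature c-ring subunit from 3 loci, and all 3 were detected in all 6 samples. Atp5g2 fell from 219 ± 16 to 20.7 ± 4.54 CPM (-3.37) and Atp5g1 from 96.6 ± 21.8 to 9.24 ± 2.79 CPM (-3.26). Of the 3 members whose promoters are shown above, Cycs and Atp5g2 were thus among the steepest falls and Atp5l showed none.

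Of the tissue-specific paralogs, Cox7a1 (heart and muscle form) had 455 UMIs over all samples, Cox6a2 had 1213 and Cox6b2 had 5583, each with fewer UMIs than its partner (Cox7a2 170886, Cox6a1 121194, Cox6b1 169456). Ndufa4l2 had 10 UMIs, Cox7b2 had 9 and Cox8b had 6. Cox8c had 0 UMIs, which allows up to 0.0122 to 0.0362 CPM per library from 3 counts, for counting error only. Of the 1213 UMIs of Cox6a2, 962 were in cluster 5 and 171 in cluster 6.

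Clusters outside the neutrophil order differed in the balance of the genomes. In the monocyte-like cluster 5 both shares were above cluster 0 in 6 of 6 samples, with a median fold of 2.44 for the mitochondrially encoded genes and 1.79 for the nuclear members. Of its cells, 316 of 1063, 473 of 1428 and 717 of 1443 carried a neutrophil reference label in femur replicates 1 to 3. In mandible replicates 1 to 3 these were 230 of 952, 399 of 1298 and 394 of 1170. Summed immature neutrophil markers had a median of 20224 CPM in cluster 5. The part of these cells in the shares and site differences of cluster 5 was not tested. In cluster 7 the mitochondrially encoded share was 8.60%, 7.24% and 6.61% in the femur and 8.44%, 8.08% and 8.55% in the mandible, a median of 22.2 times that of cluster 3. By complex the median fold was 37.0 for the mitochondrially encoded genes of complex I, 32.8 for complex III, 26.1 for complex V and 16.7 for complex IV. The nuclear share there was 0.520% to 0.763%, with a median fold of 1.03 over cluster 3. Cells of cluster 7 thus stood apart in 1 genome and not in the other, and the upper limit of 20% mitochondrial content set by the authors bounds this cluster.

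Between the sites, the mitochondrially encoded genes differed most by median log2 fold change (0.62) in cluster 2, the second most mature-like cluster. Their share of UMIs was 0.361%, 0.354% and 0.287% in the femur and 0.568%, 0.483% and 0.542% in the mandible, or 0.334% ± 0.0412 against 0.531% ± 0.0437 (SD, n = 3 each). Every mandible sample lay above every femur sample. Shares are sums over the members and were given no test. The mandible was also higher without overlap in cluster 3 (0.329% ± 0.0349 against 0.415% ± 0.0495), and in no other cluster. In cluster 7 the sites overlapped, though the difference of mean shares was larger (0.875 percentage points). As a median of cells the sites did not overlap in cluster 2 (0.193% to 0.238% against 0.292% to 0.359%), cluster 1 (0.196% to 0.266% against 0.295% to 0.365%) or cluster 7 (5.84% to 7.42% against 7.62% to 7.74%) and overlapped in the other 6 clusters, cluster 3 among them, and the difference in cluster 2 was 0.10 percentage points in place of 0.197. The nuclear share in cluster 2 overlapped between the sites, with 0.550% ± 0.103 for the femur and 0.604% ± 0.0629 for the mandible. The log2 ratio of mitochondrially encoded to nuclear UMIs there was -0.40, -0.52 and -1.22 in the femur and 0.09, -0.38 and -0.27 in the mandible. This was the only cluster of the 9 in which the ratio did not overlap between sites.

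By gene, 13 of 13 mitochondrially encoded genes had a log2 fold change above 0 in cluster 2 (mandible over femur, edgeR), with a median of 0.62 against 0.19 for the 78 nuclear members tested, of which 71 were above 0. Over all genes tested there, 50.2% were above 0. In 10 of the 13 every mandible sample lay above every femur sample, as did 6.48% of the 9618 genes tested there. An unadjusted p under 0.05 was reached by 11 of the 13, and over all genes by 5.82% on the higher side. Only mt-Cytb passed the adjusted threshold of 0.05, which 0.0312% of genes did on the higher side. mt-Cytb, the cytochrome b of complex III, measured 229, 250 and 200 CPM in the femur and 492, 439 and 549 CPM in the mandible (log2 fold change 1.17 ± 0.12 SE, edgeR adjusted p = 0.0127). All 3 mandible samples were above all 3 femur samples. The call did not survive the loss of femur replicate 1 or 2 (edgeR adjusted p = 0.106 and 0.0775) or of mandible replicate 2 or 3 (0.0944 and 0.135), at log2 fold changes of 1.12 to 1.20.

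**Figure D3:**
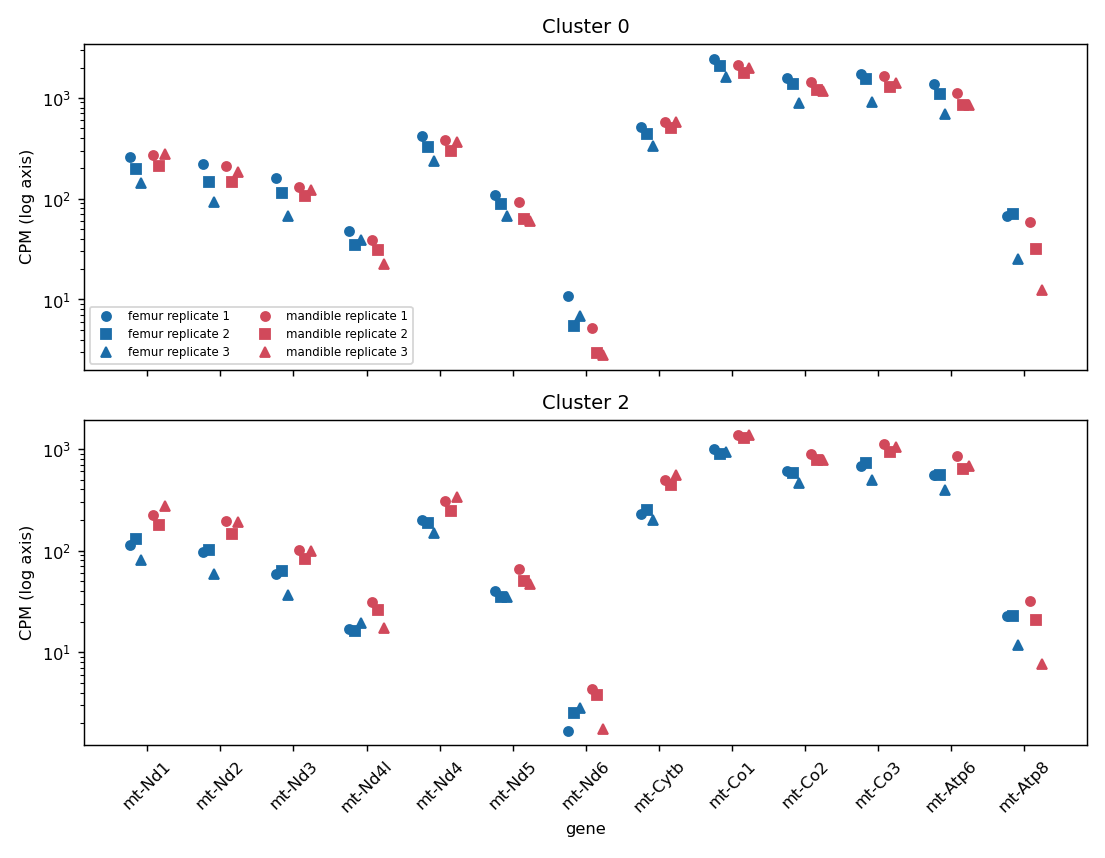
CPM (log axis) of the 13 mitochondrially encoded genes in cluster 0 (top) and cluster 2 (bottom), with 1 point per sample. In cluster 2 the mandible samples of mt-Cytb sit between 439 and 549 CPM, above the femur samples at 200 to 250 CPM, while in cluster 0 the sites overlap for 12 of the 13 genes.

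The other mitochondrially encoded genes of cluster 2 rose less or varied more. mt-Nd1 measured 114, 130 and 80.9 CPM in the femur and 224, 177 and 273 CPM in the mandible (1.10 ± 0.16, edgeR adjusted p = 0.0606). mt-Nd2 measured 96.7, 102 and 58.7 against 197, 147 and 192 CPM (1.11 ± 0.17). Both are membrane-arm subunits of complex I, and the sites did not overlap in either. mt-Co1, the catalytic subunit of complex IV, measured 995, 887 and 923 CPM in the femur and 1372, 1283 and 1382 CPM in the mandible (0.56 ± 0.15, edgeR adjusted p = 0.170). The femur samples of mt-Co1 lay within 110 CPM of each other and below every mandible sample. The sites overlapped for mt-Atp8, mt-Nd4l and mt-Nd6, the 3 with the fewest UMIs in this cluster. Over all 9 clusters, 1 of 115 mitochondrially encoded gene and cluster pairs and 0 of 682 nuclear pairs passed the adjusted threshold in edgeR, as did 0.0284% of the 84533 pairs of all genes. At an unadjusted p under 0.05 there were 33 and 27, against 8.42% of all pairs. DESeq2 gave 16 and 0 calls, and its share of calls over all genes is not given here.

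The neighbouring clusters showed smaller shifts the same way. In cluster 1, 11 of 13 mitochondrially encoded genes were above 0 (50.4% of all genes), with a median of 0.47, and 5 were higher without overlap (4.88% of all genes). mt-Cytb measured 378, 318 and 302 CPM there in the femur and 574, 523 and 591 CPM in the mandible (0.89 ± 0.14, edgeR adjusted p = 0.0651). In cluster 3, 11 of 13 were above 0 (48.9% of all genes), with a median of 0.34, and 7 were higher without overlap (3.84% of all genes). In cluster 0 the median was 0.05 with 8 of 13 above 0.

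Stage markers moved with the site inside the same clusters. In cluster 2 the summed immature neutrophil markers were 6330 to 12432 CPM in the femur and 14257 to 22166 CPM in the mandible, and 5 of 5 had a fold change above 0. Summed mature neutrophil markers were 9483 to 11190 CPM in the femur and 6964 to 8576 CPM in the mandible, and 6 of 6 had a fold change below 0. In cluster 1 the immature markers were 3000 to 6826 against 6896 to 15947 CPM, those of the gelatinase stage between them (Mmp8, Mmp9, Retnlg and Cd177) 16329 to 17744 against 23040 to 25432 CPM, and the mature markers 10654 to 13994 against 8386 to 10613 CPM. None of these 3 overlapped between sites. Monocyte markers were higher in the mandible without overlap too, at 528 to 669 against 752 to 855 CPM in cluster 2 (3 of 5 above 0) and 323 to 426 against 513 to 648 CPM in cluster 1 (4 of 5), far below the 3865 CPM of cluster 5. Both genome groups also differed between these stages and cell types. T and NK markers were higher in the mandible without overlap, at 10.4 to 13.4 against 15.8 to 17.1 CPM in cluster 2. In cluster 1 they were 7.55 to 11.3 against 13.7 to 16.2 CPM, with 1 member tested in each cluster. Stroma and bone markers were higher without overlap in cluster 1 (10.5 to 14.3 against 14.8 to 18.2 CPM, 4 of 5 above 0) and overlapped in cluster 2. The part of all these markers in the site difference was not tested. Malat1 and Neat1, nuclear RNAs used as a sign of RNA quality, summed to 14224 to 19810 CPM in the femur and 13390 to 14970 CPM in the mandible in cluster 2, with overlap. In cluster 7 they were 11845 to 17293 against 10288 to 11594 CPM, without overlap. Mature markers were lower there too (5952 to 8890 against 4397 to 5588 CPM). Gelatinase stage (9230 to 14291 against 16034 to 19073 CPM) and stroma and bone markers (9.34 to 75.6 against 236 to 751 CPM) were higher, without overlap. Their part in cluster 7 was not tested.

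Whether the site difference itself changed with the cluster was tested with limma. The difference in log2 CPM between cluster 1, 2 or 3 and cluster 0 within each sample was compared between sites. These log2 CPM were scaled with TMM, so they differ from ratios of the CPM printed here. Cluster 0 itself differed between sites in some markers, with 273 to 367 against 172 to 238 CPM for the precursor list and 16.5 to 23.7 against 46.0 to 192 CPM for the erythroid list, femur first and without overlap, and their part in the test was not tested. In cluster 2 against cluster 0, 10 of 13 mitochondrially encoded genes passed the adjusted threshold, with the mandible higher in all 10, and 0 of 80 nuclear members did. Over all 12413 genes tested, 0.814% passed. At an unadjusted p under 0.05 there were 13 of 13 and 19 of 80, against 15.8% of all genes. Differences were above 0 for 13 of 13 and 71 of 80, against 47.6% of all genes. The median difference was 0.68 for the mitochondrially encoded genes, 0.15 for the nuclear members and -0.02 over all genes. mt-Cytb in cluster 2 was below its level in cluster 0 by log2 values of -0.99, -0.74 and -0.65 in the femur and -0.11, -0.08 and -0.02 in the mandible (difference 0.72 ± 0.09, limma adjusted p = 0.00887). On this TMM scale mt-Cytb thus dropped between clusters 0 and 2 in the femur, and stayed near its cluster 0 level in the mandible. Others dropped at both sites, and less in the mandible. For mt-Atp6 the values were -1.12, -0.94 and -0.76 in femur samples and -0.31, -0.31 and -0.26 in mandible samples (0.64 ± 0.09, limma adjusted p = 0.0146). mt-Nd4l (0.87 ± 0.12) and mt-Nd5 (0.81 ± 0.12) likewise lay below cluster 0 in 6 of 6 samples, without overlap between sites. The difference was higher in the mandible without overlap in 9.3% of all genes tested. In cluster 1 against cluster 0, 1 mitochondrially encoded gene and 1 nuclear member passed, as did 0.612% of 13077 genes. These were mt-Cytb (0.46 ± 0.08, limma adjusted p = 0.0444) and Ndufv3, an accessory subunit of the NADH-binding arm of complex I (0.72 ± 0.13, limma adjusted p = 0.0444). Ndufv3 in cluster 1 was below cluster 0 by -2.38, -2.61 and -2.13 in the femur and by -1.84, -1.50 and -1.60 in the mandible. The mandible was thus higher without overlap for Ndufv3, as for 9.89% of all genes tested. The level of Ndufv3 in CPM without that scaling was 135, 138 and 171 in femur cells of cluster 0 and 133, 157 and 161 in mandible cells. In cluster 1 it was 26.6, 25.3 and 47.6 against 38.5, 60.1 and 56.0 CPM. In cluster 3 no member passed, and 0 of 12047 genes did. At an unadjusted p under 0.05 there were 7 of 13 mitochondrially encoded and 3 of 80 nuclear members, against 8.52% of all genes. Differences were above 0 for 13 of 13 and 68 of 80, against 47% of all genes.

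These calls rest on how the spread is estimated and on single libraries. The limma fit lets the prior variance follow the mean level, and with a single prior variance for all genes 0 members passed. The number of mitochondrially encoded calls, 11 over both clusters, became 0 when either mandible replicate 2 or mandible replicate 3 was left out. It was 4 if mandible replicate 1 was dropped, 9 in the absence of femur replicate 1 or of femur replicate 2, and 18 in the absence of femur replicate 3. The shares of all genes called with a library left out are not given here. The 12 differences that passed had the same sign in all of these fits. For mt-Cytb in cluster 2 they ran from 0.63 to 0.81.

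mt-Nd6, the complex I subunit on the minus strand, was lower in the mandible without overlap in clusters 0, 4, 5, 6 and 7. In cluster 4 it measured 22.2, 15.1 and 12.9 CPM in the femur and 9.40, 6.59 and 3.78 CPM in the mandible (-1.31 ± 0.30, edgeR adjusted p = 0.232). In cluster 0 it measured 10.9, 5.41 and 6.80 against 5.24, 2.98 and 2.83 CPM (-1.01 ± 0.30), and in cluster 5 31.3, 21.4 and 18.7 against 13.9, 13.8 and 5.44 CPM (-1.13 ± 0.35). None of these passed the adjusted threshold in the reported fit. In cluster 4 mt-Nd6 was called by DESeq2 (adjusted p = 0.00101), by edgeR without the filter on low counts (8.48e-06) and by edgeR without mandible replicate 1 (0.0494), and it was not called with any other library left out. Of all genes tested 8.63%, 10.1%, 4.29%, 3.01% and 7.91% were lower without overlap in clusters 0, 4, 5, 6 and 7. In cluster 2 its log2 fold change was 0.50 and the sites overlapped. Neighbouring mt-Nd5 was lower as a share of mitochondrially encoded UMIs in 3 clusters.

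As shares of the mitochondrially encoded UMIs, which set aside how many there were, mt-Cytb was higher in the mandible without overlap in 5 of 9 clusters (0 to 4) and mt-Nd6 lower in 6 of 9. mt-Cytb made up 6.34%, 7.07% and 6.99% in the femur and 8.66%, 9.09% and 10.1% in the mandible in cluster 2. mt-Nd6 made up 0.142%, 0.107% and 0.179% in the femur and 0.0739%, 0.0688% and 0.0340% in the mandible in cluster 4. mt-Nd1 was higher in the mandible in 5 clusters as well, while mt-Co1, mt-Nd4 and mt-Nd4l overlapped in all 9. The rest also parted without overlap in some clusters. mt-Nd5 was lower in the mandible in 3 clusters, mt-Atp6 in 2, and mt-Co2 and mt-Atp8 in 1 each. mt-Nd2 and mt-Co3 were higher in 1 cluster each, and mt-Nd3 was higher in 1 and lower in 1. Shares of 1 sum move against each other, and the clusters of a sample share a library, so these clusters are not independent counts of the difference.

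**Figure D4:**
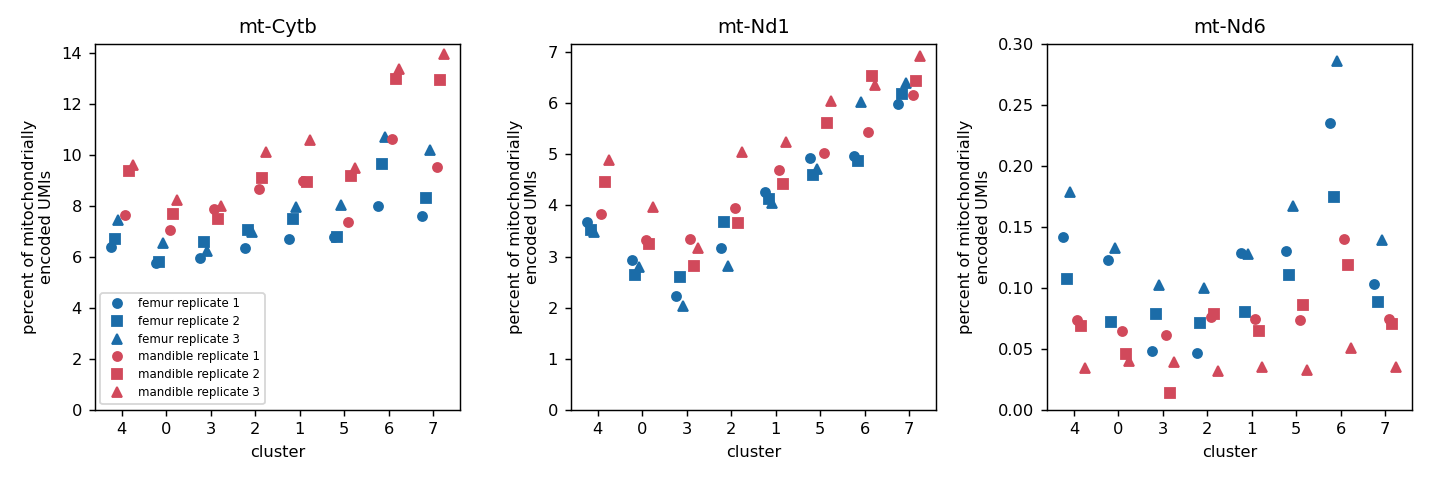
Percent of the mitochondrially encoded UMIs taken by mt-Cytb, mt-Nd1 and mt-Nd6 in each cluster, with 1 point per sample and axes from 0. The mandible samples lie above the femur samples for mt-Cytb in clusters 0 to 4, and below them for mt-Nd6 in clusters 0, 1, 4, 5, 6 and 7.

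By members higher in the mandible without overlap, the nuclear site difference was broadest in clusters 4 and 5, and it was small. By direction it was not particular to them. In clusters 1, 2, 3 and 6, 69 of 78, 71 of 78, 70 of 78 and 71 of 79 nuclear members were above 0. Of all genes tested there, 48.9% to 50.4% were. The nuclear medians there were 0.18, 0.19, 0.12 and 0.15. In cluster 4, 74 of 80 nuclear members had a log2 fold change above 0, as did 50% of the 12265 genes tested, with a median of 0.14. In 16 the mandible was higher without overlap, against 5.9% of all genes, and 18 had an unadjusted p under 0.05, all higher, against 6.21% on that side. Ndufb8, a membrane-arm subunit of complex I, measured 93.7, 109 and 99.9 CPM in the femur and 112, 128 and 138 CPM in the mandible (0.34 ± 0.10, edgeR adjusted p = 0.283). Cycs measured 74.2, 78.6 and 78.5 against 83.2, 93.3 and 105 CPM (0.31 ± 0.10, edgeR adjusted p = 0.293). Atp5g1 had the largest log2 fold change of cluster 4 (0.40 ± 0.16), carried by mandible replicates 2 and 3 (126 and 122 CPM) while mandible replicate 1 (77.7 CPM) lay below the femur samples (80.9 to 88.3 CPM). Atp5b, the catalytic subunit of complex V, had the lowest (-0.07 ± 0.08). Nearly all cells of cluster 4 carried S or G2M phase calls, and in the 6 to 28 cells per sample called G1 the log2 fold changes of Cycs and Atp5g1 and the difference in the nuclear share had the opposite sign.

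In cluster 5, 76 of 81 nuclear members had a log2 fold change above 0, against 47.6% of the 13765 genes tested, and 20 were higher without overlap, against 7.32%. Only 2 had an unadjusted p under 0.05, against 3.25% of genes on the higher side, and 0 passed. The nuclear share was 1.35%, 1.53% and 1.54% in the femur and 1.54%, 1.93% and 1.65% in the mandible, so that mandible replicate 1 lay just above the highest femur sample. Complexes III and V were higher as sums without overlap (0.133% ± 0.00891 against 0.154% ± 0.0157 of UMIs, and 0.439% ± 0.0311 against 0.516% ± 0.0620). Uqcrfs1, the Rieske iron-sulfur protein of complex III, measured 75.8, 81.5 and 72.0 CPM in the femur and 89.2, 103 and 95.5 CPM in the mandible (0.28 ± 0.12). The largest value belonged to Cox6a2, the heart and muscle form of a complex IV subunit, with 1.89, 7.82 and 3.28 CPM in the femur and 2.80, 24.2 and 22.2 CPM in the mandible (1.86 ± 0.75, edgeR adjusted p = 0.687). Mandible replicates 2 and 3 were high and replicate 1 lay within the femur range. With 1 library left out the value ran from 1.46 (without mandible replicate 2) to 2.54 (without femur replicate 2). Cox6a2 lies on chromosome 7 inside Itgad, which is on the other strand. Cox7a2l had the lowest value, with 209 to 267 CPM in the femur and 198 to 224 CPM in the mandible (-0.20 ± 0.14).

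**Figure D5:**
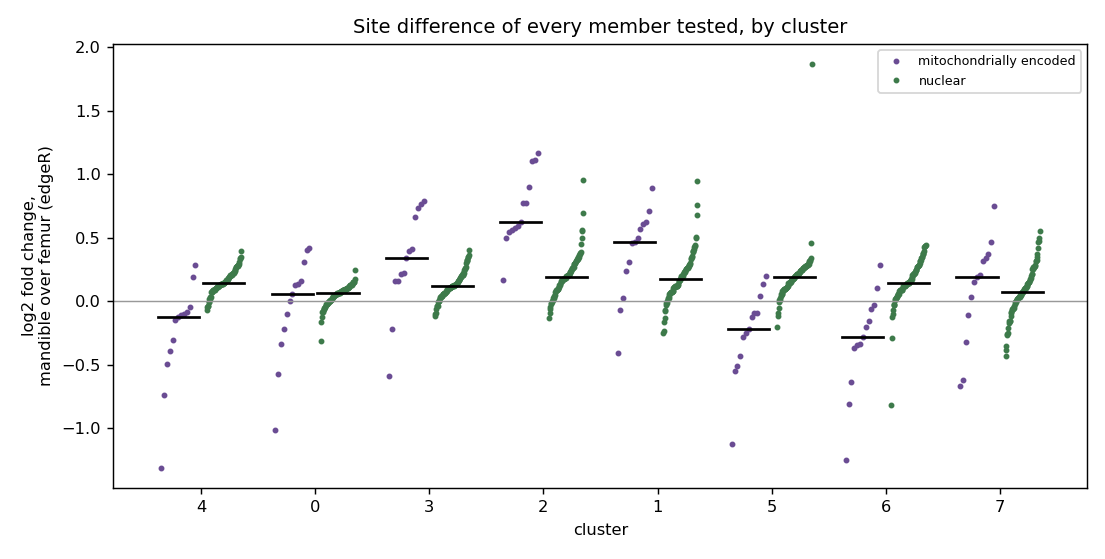
Log2 fold change of mandible over femur (edgeR) for each member tested, by cluster in the neutrophil order followed by clusters 5, 6 and 7, with the median as a black line. The mitochondrially encoded genes have their highest median in cluster 2 (0.62) and lie mostly below 0 in clusters 4, 5 and 6, where the nuclear medians are 0.14, 0.19 and 0.15.

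The 2 groups of genes thus had medians of opposite sign in clusters 4 and 5. The mitochondrially encoded medians were -0.13 and -0.22, with 11 and 10 of 13 below 0, beside nuclear medians of 0.14 and 0.19. Medians were also of opposite sign in clusters 6 and 8, at -0.28 and -0.33 beside nuclear medians of 0.15 and 0.18. Femur replicate 3 had the lowest mitochondrially encoded share of the 6 samples in each of clusters 0 to 7 and the highest nuclear share in clusters 0, 1, 2, 3 and 7. Without it, 228 of 686 nuclear pairs over the 9 clusters had an unadjusted p under 0.05, against 27 with it, and 0 passed the adjusted threshold. The share of all genes without femur replicate 3 is not given here, so this rise is not read as particular to the nuclear members. The direction for the mitochondrially encoded genes in clusters 4 and 5 turned with single libraries. Their share of UMIs was lower in the mandible by 0.119 percentage points in cluster 4 and 0.0928 in cluster 5, but higher by 0.0482 and 0.197 without femur replicate 1, the only female sample. The nuclear share stayed higher with any 1 library left out. In cluster 5 the mandible samples also held more ameloblast markers (16, 83.6 and 1317 CPM against at most 0.550 CPM), and their stroma and bone markers were at 81.2, 623 and 646 CPM against 65.4 to 113 CPM. Mature neutrophil markers were lower in the mandible there (1367 to 1843 against 1989 to 2249 CPM, 6 of 6 below 0). The mandible samples also held more erythroid markers (580 to 1292 CPM against 142 to 560 CPM) and less Malat1 and Neat1 (8693 to 10681 against 10822 to 12641 CPM), and in cluster 4 the precursor markers were 2917 to 3579 CPM in the femur and 3360 to 4758 CPM in the mandible. Lists of other cell types were higher in mandible cells of cluster 4 without overlap, with 80.3 to 94.6 against 105 to 136 CPM for T and NK, 2.02 to 7.76 against 8.10 to 19.5 CPM for B lineage and 2.90 to 4.15 against 7.07 to 10.4 CPM for stroma and bone markers. The part of these in the nuclear difference was not tested.

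In clusters 0, 1, 2 and 3 the largest rises among nuclear members were those of Ndufb8 (0.25 ± 0.15), Ndufa11 (0.94 ± 0.40), Ndufa5 (0.96 ± 0.39) and Ndufa11 (0.40 ± 0.36), all with overlap between sites. Ndufa5 in cluster 2 measured 1.69, 2.14 and 3.80 CPM in the femur and 3.5, 5.54 and 6.28 CPM in the mandible, and Ndufa11 in cluster 1 4.32, 5.18 and 8.94 against 6.49, 16.7 and 9.90 CPM. They rest on 228 and 642 UMIs over all samples. Without femur replicate 3 the 4 rises were 0.40, 1.35, 1.49 and 0.96, and without mandible replicate 2 those of Ndufa11 were 0.47 and 0.14, so their sizes turned on single libraries. The largest falls were those of Cox6b2 (-0.32 ± 0.23), Sdha (-0.25 ± 0.12), Cox7a2l (-0.13 ± 0.17) and Atp5b (-0.12 ± 0.13). With 1 library left out these ran from -0.50 to -0.098 for Cox6b2, -0.27 to -0.22 for Sdha, -0.24 to 0.083 for Cox7a2l and -0.20 to -0.054 for Atp5b. Sdha in cluster 1 was lower without overlap, at 45.9, 51.2 and 44.2 CPM in the femur and 37.3, 33.2 and 37.7 CPM in the mandible. So were 16.9% of the 10687 genes tested there and 2 of the 78 nuclear members. In cluster 2, 1 of the 4 complex II members had a fold change above 0, beside 34 of 36 nuclear members in complex I, 8 of 8 in complex III, 11 of 12 in complex IV and 16 of 17 in complex V. The summed complex II share overlapped between the sites in all 9 clusters.

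Genes that build, transcribe or regulate the pathway were described from lists written by hand, and none of those tested passed the adjusted threshold in clusters 0 to 5. In cluster 2, 25 of 35 assembly factors, 10 of 19 genes of mitochondrial transcription and RNA, 5 of 11 nuclear regulators, 47 of 64 mitochondrial ribosomal proteins and 13 of 15 genes of the TCA cycle had a log2 fold change above 0, with medians of 0.11, 0.00, -0.09, 0.19 and 0.12. Tfam, which packs and transcribes mitochondrial DNA, measured 0.563 to 1.18 CPM in the femur and 1.13 to 1.60 CPM in the mandible (0.65 ± 0.38). Pdk1, a kinase that holds back pyruvate dehydrogenase, measured 2.37, 3.62 and 2.52 CPM in the femur and 0.721, 0.791 and 1.87 CPM in the mandible, without overlap (-1.31 ± 0.39, edgeR adjusted p = 0.218). Ttc19, a complex III assembly factor, measured 15.2 to 16.4 CPM in the femur and 5.08 to 13 CPM in the mandible, without overlap (-0.82 ± 0.30), and Hif1a, the hypoxia factor, measured 150 to 254 CPM in the femur and 114 to 155 CPM in the mandible (-0.52 ± 0.23). Nubpl (0.62 ± 0.33), Rexo2 (-0.39 ± 0.39), Sirt3 (0.38 ± 0.29), Mrpl55 (0.87 ± 0.39) and Mrpl52 (-0.92 ± 0.55) were further largest rises and falls of their lists. In clusters 4 and 5 the mitochondrial ribosomal proteins resembled the nuclear members in their counts, with 72 of 78 and 76 of 78 above 0 and medians of 0.17 and 0.20.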

How the data were processed

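Raw counts deposited by the authors, as whole UMIs per gene and barcode, were used with the deposited table of kept cells. Per the labels and methods, 10x Genomics 3' reads were counted with Cell Ranger 7.0.1 on mm10 (the matrix headers give 7.1.0). Cells with 600 to 6000 genes and no more than 20% mitochondrial content were retained by the authors, who regressed that content and the cell cycle difference out with SCTransform, integrated the captures and clustered at resolution 0.1. The deposited table also holds UMIs (a count) and the mitochondrial percent of each cell, used here as a check, and other values such as phase calls, used to pick cells. The authors' marker table, with fold changes and p-values of clusters, was not used. No cell was removed here and no doublet caller was run.

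Counts were summed per sample and cluster and given as CPM, UMIs per 1000000 UMIs of the sum. Since 3' tags are counted once per molecule, values were not divided by length and levels were not ranked between genes. Sites were compared per cluster with edgeR 4.0.16 (quasi-likelihood, TMM, filterByExpr at its defaults, without covariates). Clusters 1, 2 and 3 were set against cluster 0 by limma 3.58.1, as differences of log2 CPM within each sample (prior count 2). These log2 CPM were scaled by TMM over the sums of both clusters, unlike the CPM printed elsewhere. Adjusted p-values are Benjamini-Hochberg over all genes tested in a comparison. The variance trend in limma was added because of simulated data for cluster 2 (12297 genes, 200 changed). The fit without it recovered 0 changed genes and the fit with it 45, with 2 false calls. The simulation gave every gene the same extra spread and drew libraries independently, so it cannot tell which fit suits the real libraries. Standard errors are those of the fitted models, and edgeR's were taken as the log2 fold change divided by the root of F. DESeq2 1.42.0 and other alternatives are in the closing section. Depth was 82962160 to 244946998 UMIs per sample. Intervals from counts of 0 cover counting error only.

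Named members are the 13 mitochondrially encoded genes, nuclear members past a threshold, the member with the highest mean CPM and the largest and smallest cluster 1 to cluster 4 ratio in each complex, the largest rise and fall in clusters 0 to 5, the paralogs, and the largest rise and fall of each pathway list in cluster 2. One gene that this rule names is not reported here. Uqcrfs1, and Cycs and Ndufb8 in cluster 4, were named after their values were seen. Members, lists and tests were chosen with earlier results of these data known. Positions come from GENCODE vM21, in which 32158 of 32285 gene identifiers were found.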

Additional observations from a re-analysis of the deposited data

Results flagged for a closer look

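Members were picked out here because their site difference in a mature-like cluster differed from that in cluster 0 by limma's own test of the difference, adjusted over all genes tested. For cluster 2 minus cluster 0, the mandible minus femur differences in log2 CPM were 0.67 (mt-Nd1), 0.75 (mt-Nd2), 0.69 (mt-Nd3), 0.61 (mt-Nd4), 0.87 (mt-Nd4l), 0.81 (mt-Nd5), 0.72 (mt-Cytb), 0.54 (mt-Co2), 0.61 (mt-Co3) and 0.64 (mt-Atp6). For cluster 1 minus cluster 0 they were 0.46 (mt-Cytb) and 0.72 (Ndufv3). In each of the 12, all 3 mandible samples lay above all 3 femur samples on this TMM-scaled log2 CPM. So they did in 9.3% of all genes for cluster 2 and 9.89% for cluster 1. The 12 were picked by a test of this same difference, so the separation adds no support. The other 3 mitochondrially encoded genes, mt-Co1, mt-Atp8 and mt-Nd6, had differences of 0.55, 0.68 and 1.43 in cluster 2 and missed the threshold (limma adjusted p = 0.0502, 0.0582 and 0.109). The mitochondrially encoded genes come from shared precursor RNAs and mt-Cytb is counted in both clusters, so these are not independent results. Groups of 3 samples were too small to look for single outlying samples by a rule.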

How the results depend on the processing

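For single members under other settings that left no library out, 202 values had the same direction and side of the threshold, 34 gained and 39 lost a call and 3 changed sign. These 3 were Atp5g1 and Cycs in cluster 4 among cells called G1 (log2 fold changes of -0.24 and -0.45) and mt-Atp8 in cluster 2 with the title number as replicate block (-0.011). With 1 library left out, 203 were the same, 2 gained and 44 lost a call, and 3 changed sign, 1 for Cox7a2l in cluster 2 (range -0.24 to 0.083) and 2 for mt-Atp8 in cluster 2 (-0.32 to 0.57). The difference in mitochondrially encoded share in cluster 2 (0.197 percentage points) was 0.10 as a median of cells, and that in nuclear share in cluster 4 (0.113) was -0.0805 in G1 cells, both without a test. The other 70 values of shares and ratios moved by less than 1 SD, and so did all 162 with 1 library left out. With 1 library left out the sign of the difference turned for the mitochondrially encoded share in clusters 0, 4, 5 and 6, for the nuclear share in clusters 0, 1, 7 and 8 and for the log2 ratio in all clusters but 1 and 2.

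Counts of members called moved more. The shares of all genes called under the other settings are not given here. The counts therefore show how the calls move, not a result about the members. The number of mitochondrially encoded calls between sites, 1 in the reported fit, was 16 with DESeq2, 18 without the filter on low counts and 0 to 2 with 1 library left out. The number of nuclear calls between sites, 0 in the reported fit, was 3 without the filter and 0 to 1 with 1 library left out. The number of mitochondrially encoded calls for a different site effect than in cluster 0 was 11 in the reported fit. It was 0 without the filter, 0 without the variance trend and 0 to 18 with 1 library left out. The plan did not name the trend, which was added after simulated data built from these counts were seen. The number of nuclear calls for a different site effect, 1 in the reported fit, was 0 without the filter, 0 without the variance trend, 0 at a prior count of 0.5 and 0 to 4 with 1 library left out. The cause was not tested.

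The labels number the replicates 1 to 3 at each site, but these numbers did not pair the samples (correlations of deviations from the site means of -0.40 to 0.18 in clusters 0 to 7). With them as a replicate block the counts of mitochondrially encoded and nuclear calls were 0 and 0 between sites and 0 and 0 for a different site effect. Library names share the numbers 6 and 7 between a femur and a mandible sample, all male, and the labels do not say what the number marks. These pairs correlated at 0.29 to 0.50 in clusters 0 to 3, at 0.0031 to 0.33 in clusters 4 to 7 and at -0.63 and -0.17 in cluster 8. With that replicate block over 4 libraries the counts were 39 and 4 between sites and 24 and 11 for a different site effect. mt-Nd6 in cluster 4 was called there (-0.81, edgeR adjusted p = 2.44e-05), and the value of Cox6a2 in cluster 5 was 0.77. Site and block take up most of these 4 libraries, and the shares of all genes called are not given here. These counts are therefore not a result about the members. Within the pairs the mitochondrially encoded share of cluster 2 was higher in the mandible by 0.214 and 0.196 percentage points.

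Each site had only 3 samples, and the sexes of the femur samples were unequal. Clusters 6 to 8, and low members such as mt-Nd6, held few UMIs. How much each of these limited precision was not compared.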
